A study of Homo sapiens with 6 samples.

Results

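RANBP2 and the RGPD genes are a family of recent gene copies on human chromosome 2, and 8 of its genes are described here, RANBP2, RGPD1, RGPD2, RGPD3, RGPD4, RGPD5, RGPD6 and RGPD8, out of 23406 features in the deposited tables. The members were taken by their Ensembl identifiers, matched to symbols. The family was chosen by the measured fold change of RGPD6, which was among the features with the lowest expression in shNXN relative to shControl cells, so the values of RGPD6 in that comparison are a description and carry no test. The question of the comparison was how each copy, and the sum of the copies, differed between the groups when the copies share nearly all of their sequence.

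RANBP2 encodes Nup358, the giant protein of the filaments on the cytoplasmic face of the nuclear pore. It binds the small GTPase Ran, anchors SUMO-modified RanGAP1 and acts as a SUMO E3 ligase, so that transport receptors are released and cargo passes the pore. The RGPD genes (RANBP2-like and GRIP domain containing) arose when a segment holding part of RANBP2 was duplicated and joined to the last exons of GCC2, which encodes a golgin whose GRIP domain docks on the Golgi. RGPD proteins therefore resemble the front of RANBP2 and end in a GRIP domain, and they are less well studied than the parent gene.

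Hep3B, an established human hepatocellular carcinoma line, was profiled in 6 RNA sequencing libraries. Cells were transduced with a lentivirus for a control hairpin (shControl) or for a hairpin that targets NXN, the gene of nucleoredoxin (shNXN), selected in puromycin, and collected on days 7, 9 and 11. Both groups share the line, the virus and the selection, and each group has 1 library for each day, so that a day has no replicate of its own and p values measure the spread between these libraries. The hairpin sequence used is not given in the sources used here. Expression was deposited as estimated counts and as FPKM (fragments scaled to the transcript length and the library size).

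The libraries held 15349382 to 16332589 counts. NXN itself was at 181, 138 and 143 CPM (counts scaled to the library size, with TMM factors) in shControl cells on days 7, 9 and 11 and at 42.6, 47.5 and 39.5 CPM in shNXN cells, and the groups did not overlap. All 9 hepatocyte and hepatoma markers, among them AFP, ALB and GPC3, were detected, summing to 13000 to 23500 CPM in shControl and 6250 to 15100 CPM in shNXN libraries. Of the endothelial markers in the table, VWF and KDR were at 0 in every library and the third, CDH5, was at 0 in all shNXN libraries, and the list summed to at most 0.0613 CPM. The leukocyte markers summed to 62.4 to 77.5 CPM in shControl and 91.3 to 106 CPM in shNXN libraries, mostly CD68, with CD3E at 0 in every library. The fibroblast markers summed to 4.06 to 7.05 and 6.13 to 8.51 CPM. The part of these marker levels in the values of the family was not tested.

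The copies lie on both strands of chromosome 2. In the GENCODE 29 annotation of GRCh38, RANBP2 (ENSG00000153201) spans chr2:108719481-108785811 on the plus strand, and its longest coding transcript has 29 exons and 11711 bases. RGPD5 (ENSG00000015568) spans chr2:109792758-109857695 on the plus strand, RGPD6 (ENSG00000183054) chr2:110513812-110577185 on the minus strand and RGPD8 (ENSG00000169629) chr2:112370092-112434488 on the minus strand. The longest coding transcript of each RGPD gene has 23 exons. RGPD1 and RGPD2 lie apart from the others, at chr2:86907953-87013976 on the plus and chr2:87755955-87825952 on the minus strand, and RGPD3 and RGPD4 at chr2:106391290-106468376 on the minus and chr2:107826937-107890841 on the plus strand.

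The coding sequences show which copies can be told apart. Those of RGPD5 and RGPD6 were identical over 5295 bases, with 0 substitutions and 0 gap bases. RGPD8 differed from either by 10 substitutions, an identity of 99.81%. RGPD1 and RGPD2 differed from each other by 8 substitutions and 18 gap bases, and RGPD3 and RGPD4 by 43 substitutions. RANBP2 was farther away, with a coding sequence of 9672 bases. Against the whole coding sequence of RGPD6, 86.31% of aligned bases were identical, beside 676 gap bases. That alignment includes the GRIP end from GCC2, so the value is not the identity of the shared part alone. A 120-base window at the start of the coding exon that is longest in RGPD6 (exon 20) is shown for each distinct form. Bases that differ from RGPD6 are in capitals. The window shows how few letters separate the copies in this stretch, and it does not stand for their whole coding sequences. The window of RGPD6 is chr2:110535569-110535688 on the minus strand (GRCh38), and those of RGPD5 (chr2:109835819-109835938, plus strand) and RGPD8 (chr2:112390128-112390247, minus strand) have the same letters. The window of RANBP2 is chr2:108766165-108766284 on the plus strand, and RGPD3 has the same letters at chr2:106425147-106425266 on the minus strand. RGPD1 (chr2:86985576-86985695, plus strand) and RGPD2 (chr2:87784228-87784347, minus strand) share a form, and RGPD4 (chr2:107870705-107870824, plus strand) has its own.
RGPD6: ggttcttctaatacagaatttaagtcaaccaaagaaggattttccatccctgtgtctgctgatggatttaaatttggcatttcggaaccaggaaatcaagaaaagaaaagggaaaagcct
RANBP2: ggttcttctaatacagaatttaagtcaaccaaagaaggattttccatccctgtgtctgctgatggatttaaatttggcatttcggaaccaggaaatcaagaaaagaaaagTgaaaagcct
RGPD1: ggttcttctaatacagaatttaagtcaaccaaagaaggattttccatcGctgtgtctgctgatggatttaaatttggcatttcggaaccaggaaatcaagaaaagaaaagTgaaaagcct
RGPD4: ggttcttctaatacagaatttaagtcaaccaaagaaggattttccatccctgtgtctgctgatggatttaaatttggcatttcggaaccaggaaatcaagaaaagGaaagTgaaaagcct
In this window RANBP2 and RGPD3 differ from RGPD6 at 1 base, RGPD1, RGPD2 and RGPD4 at 2 bases, and RGPD5 and RGPD8 at 0 bases.

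The sharing was then counted over all annotated transcripts of each gene, untranslated parts included. Of the 13790 distinct 100-base stretches in RGPD6 transcripts, 98.2% were also found in RGPD5 and 100% in at least 1 other member, so that 0 stretches belonged to RGPD6 alone. RGPD5 had 14551 such stretches, of which 93.1% were found in RGPD6 and 976 in no other member. RGPD8 shared 83.3% of its stretches with another member and RANBP2 14.2%. The share of RGPD6 stretches found elsewhere in the family was 100% for stretches of 50 and of 150 bases too, whereas that of RANBP2 was 27.2% and 6.2%. RGPD1 and RGPD2 shared 87.3% and 90.8% of their stretches with each other, and RGPD3 and RGPD4 46.7% and 50.6%. RANBP2 had the smallest shared part of the 8 genes.

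The deposited counts of the family were not whole numbers. Every count of a member above 0 was fractional, 6 of 6 in each library, whereas 20.5% to 25.2% of all features above 0 were fractional (tolerance 1e-06). Fractional counts can arise when a read that matches several places is divided among them. Of the 8 members, 7 were above 0 in at least 1 library, and 4 (RANBP2, RGPD5, RGPD6 and RGPD8) passed the filter on low counts and could be tested.

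RANBP2, the parent gene, had 3937.22, 4086.67 and 4795.61 counts in shControl cells on days 7, 9 and 11 and 636.21, 331.9 and 2034.12 counts in shNXN cells. The groups did not overlap, and the shNXN library of day 11 lay well above the other shNXN libraries. In bulk RNA, fewer cells that express a gene and less RNA per cell cannot be told apart. On the CPM scale the level was 268 ± 23.0 in shControl and 63.4 ± 59.4 in shNXN cells (SD, n = 3 each), and the log2 differences within days were -2.74, -3.63 and -1.17. The log2 fold change was -2.08 ± 0.62 (SE, the standard error of the fit), which missed the threshold of 0.05 (edgeR adjusted p = 0.0822, quasi-likelihood test over 14071 features). With the replicate number as a block, which follows the day, RANBP2 was called lower (log2 fold change -2.51, edgeR adjusted p = 0.0289). Without the shNXN library of day 11 it was called as well (-3.18, edgeR adjusted p = 0.00109). These fits called 23.3% and 25.8% of their features. With any other single library left out RANBP2 did not pass (edgeR adjusted p = 0.119 to 0.253). Those fits called 0 features, or 1.73% of them without shControl replicate 2, so this miss says little about RANBP2.

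RGPD8, the copy nearest in sequence to RGPD5 and RGPD6, followed RANBP2. It had 149.73, 160.56 and 161.09 counts in shControl cells and 32.77, 13.33 and 86.48 counts in shNXN cells, again without overlap and with the highest shNXN value on day 11. Its level was 9.86 ± 0.0365 CPM in shControl and 2.79 ± 2.48 CPM in shNXN cells (SD, n = 3 each), so that the spread in CPM lay almost wholly in the shNXN group. In FPKM the spread was alike, with an SD of 0.470 in shControl and 0.444 in shNXN cells. The log2 fold change was -1.83 ± 0.60 (SE, edgeR adjusted p = 0.0984), or -2.12 with the block (edgeR adjusted p = 0.0467) and -2.81 without the shNXN library of day 11 (edgeR adjusted p = 0.0041). The latter 2 fits called 23.3% and 25.8% of their features. With any other single library left out RGPD8 did not pass (edgeR adjusted p = 0.136 to 0.279), in fits that called 0 features, or 1.73% without shControl replicate 2.

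RGPD6, the gene that led to the choice of the family, had 468.57, 587.56 and 409.57 counts in shControl cells and 25.76, 16.01 and 43.95 counts in shNXN cells. All shNXN libraries lay far below all shControl libraries, at 1.79 ± 0.946 CPM against 30.7 ± 5.51 CPM (SD, n = 3 each). The log2 differences within days were -4.29, -5.20 and -3.15, and the fitted log2 fold change was -4.09 ± 0.40 (SE).

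RGPD5, whose coding sequence is the same as that of RGPD6, showed another picture. It had 439.23, 287.04 and 872.81 counts in shControl cells and 394.11, 207.74 and 668.71 counts in shNXN cells. The groups overlapped, and in each group day 9 was lowest and day 11 highest. Its level was 33.3 ± 18.4 CPM in shControl and 26.6 ± 15.4 CPM in shNXN cells (SD, n = 3 each), and the log2 differences within days were -0.26, -0.47 and -0.31. The log2 fold change of -0.33 ± 0.53 (SE) did not pass (edgeR adjusted p = 0.678, or 0.103 with the block). Its direction turned to 0.58 with a correction for transcript GC content and to 0.16 with limma on log2(FPKM + 1), where the median of all features was 0.13. Neither passed.

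Of the 4 members tested, 1 (RGPD6) was called without the block, against 3.39% of all 14071 features, and 3 (RANBP2, RGPD6 and RGPD8) with it, against 23.3% of all features. DESeq2 called these 3 as well, against 23.5% of all features, and limma on log2(FPKM + 1) called 1 (RGPD6), against 2.04%. Of the 4, the same 3 members did not overlap between the groups and were lower in shNXN cells, which held for 21.5% of all features tested. Nothing is read from these counts, since RGPD6 led to the choice of the family and the members share sequence.

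**Figure D1:**
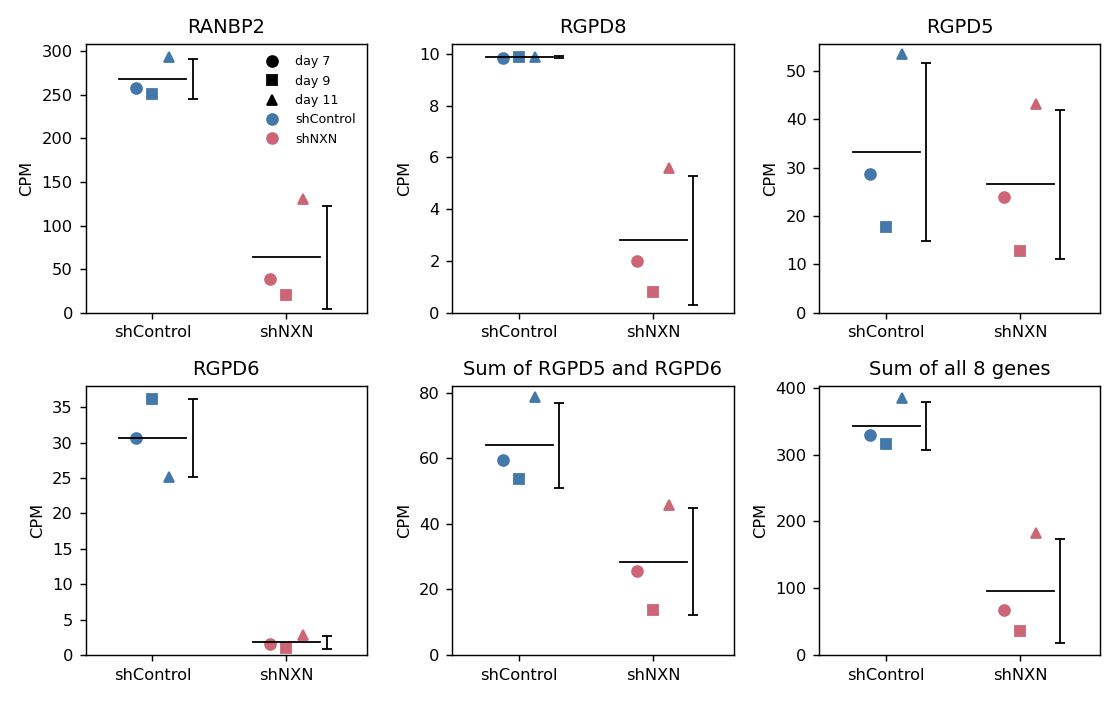
Level of the 4 tested members and of 2 sums in each library, in CPM on linear axes from 0 (circles day 7, squares day 9, triangles day 11, blue shControl, red shNXN; line, mean; bar, SD, n = 3). RANBP2, RGPD8 and RGPD6 do not overlap between groups, RGPD5 does (33.3 ± 18.4 against 26.6 ± 15.4 CPM), and the triangle of day 11 is the highest shNXN point in every panel.

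The remaining copies were near the limit of detection and failed the filter, so they have no test in the fit. RGPD3 had 14.27, 4.94 and 22.42 counts in shControl cells and 1.94, 0 and 4.04 counts in shNXN cells. RGPD2 had 11.6, 9.56 and 6.69 counts in shControl cells and 0, 6.4 and 5.88 counts in shNXN cells. RGPD1 was at 0 in all shControl libraries and had 5.06, 1.6 and 0 counts in shNXN cells. On day 7 the shControl library thus listed RGPD2 and not RGPD1, and the shNXN library RGPD1 and not RGPD2, although these copies differ at 8 coding bases. RGPD3 did not overlap between groups in CPM, and RGPD1 did. RGPD2 was apart in CPM only by 0.41 in shControl against 0.392 in shNXN cells, and in FPKM both groups held 0.06. Groups apart with shNXN lower held for 21.5% of the features tested, which do not include these copies. Added together, RGPD1 and RGPD2 gave 0.761, 0.588 and 0.41 CPM in shControl and 0.308, 0.49 and 0.379 CPM in shNXN cells, and the groups overlapped (exact two-sided permutation p = 0.2). RGPD4 was at 0 in all 6 libraries. A count of 0 allows up to 3 counts, or 0.184 to 0.195 CPM in a library, for counting error only, and 61.2% of RGPD4's 100-base stretches also occur in another copy.

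A sum over copies does not depend on how a read was divided, as long as it stayed within the summed copies. RGPD5 and RGPD6 together had 907.8, 874.6 and 1282.38 counts in shControl cells and 419.87, 223.75 and 712.66 counts in shNXN cells, and every shNXN value lay below every shControl value. In CPM the sum was 64.0 ± 13.0 against 28.4 ± 16.3 (SD, n = 3 each), with log2 differences of -1.22, -1.97 and -0.78 on days 7, 9 and 11. The fitted log2 fold change of the sum was -1.17 ± 0.41 (SE), between the values of RGPD6 alone (-4.09) and RGPD5 alone (-0.33). RGPD6 supplied 28.9 of the 35.6 CPM by which the sum was lower (81.1%), so this sum too is a description without a test.

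Adding RGPD8 gave a log2 fold change of -1.24 ± 0.42 (SE), and all 7 RGPD copies together gave -1.25 ± 0.42 (SE). RGPD6 supplied 67.7% and 66.2% of the CPM by which these sums were lower, and they carry no test either. All 8 members together had 5020.62, 5136.33 and 6268.19 counts in shControl cells and 1095.85, 576.98 and 2843.18 counts in shNXN cells. This sum did not overlap between groups, and RGPD6 supplied 11.6% of the CPM by which it was lower. Its log2 fold change was -1.85 ± 0.54 (SE, edgeR adjusted p = 0.0802, or 0.0272 with the block, which gave -2.17). This sum still holds the RGPD6 values that chose the family, so its p values are a description. The 7 members other than RGPD6 were summed to see whether the other copies were higher where RGPD6 was lower. Their log2 fold change was -1.74 ± 0.55 (SE, edgeR adjusted p = 0.0896, or 0.028 with the block). RANBP2 made up 268 of the 313 CPM of this sum in shControl cells, so the sum cannot show a smaller rise of another copy. It leaves out the RGPD6 values that chose the family, but RGPD5 counts can depend on how reads shared with RGPD6 were divided. Without the shNXN library of day 11 both of the latter sums passed, at -2.75 for all 8 members and -2.65 for the members other than RGPD6 (adjusted p from edgeR 0.0015 and 0.00179), in a fit that called 25.8% of its features.

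**Figure D2:**
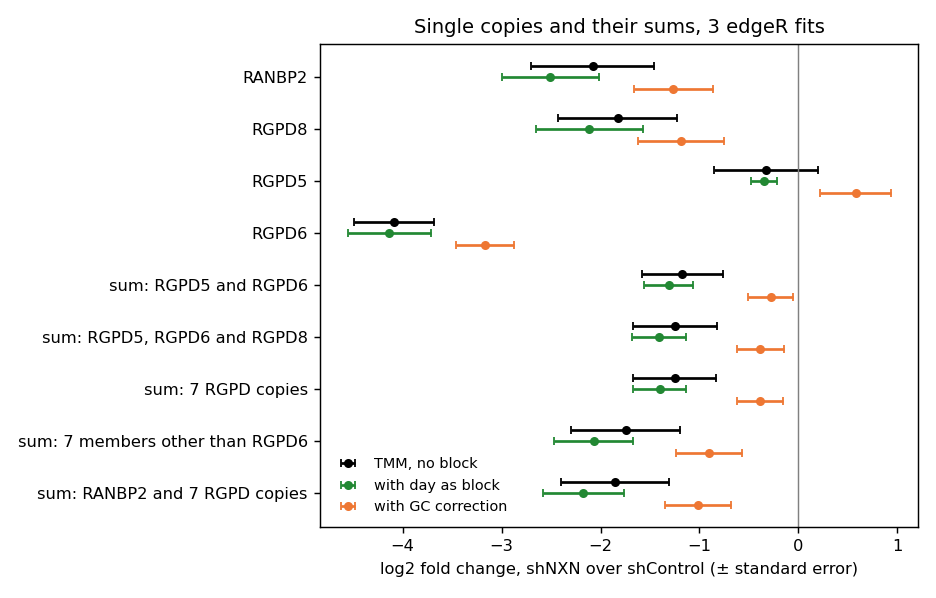
Log2 fold change of shNXN over shControl (points) with its standard error (bars) for the 4 tested members and 5 sums, in 3 edgeR fits: TMM without block (black), with the day as block (green) and with GC correction (orange). RGPD6 alone is at -4.09 without block, RGPD5 alone at -0.33 and their sum at -1.17, and the GC correction moves every value to the right.

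The division of counts between RGPD5 and RGPD6 differed between the groups. RGPD6 held 51.6%, 67.2% and 31.9% of their summed counts in shControl cells on days 7, 9 and 11 and 6.14%, 7.16% and 6.17% in shNXN cells. The shares varied by day among the shControl libraries and hardly at all among the shNXN libraries (50.2% ± 17.7 against 6.49% ± 0.58, SD, n = 3 each). In FPKM the share was 45.3%, 65.9% and 27.9% against 8.81%, 15.0% and 11.5%. Since RGPD6 led to the choice of the family, these shares are a description without a test.

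Within the sum of all 8 members, RGPD5 held 8.75%, 5.59% and 13.9% of the counts in shControl cells and 36.0%, 36.0% and 23.5% in shNXN cells. Its share was higher in all shNXN libraries while its CPM was not (exact two-sided permutation p = 0.1, which is the lowest value that 3 against 3 libraries allow, or 0.35 after Benjamini-Hochberg adjustment over the 7 shares tested, whose denominator includes RGPD6). RANBP2 held 78.4%, 79.6% and 76.5% in shControl and 58.1%, 57.5% and 71.5% in shNXN cells (exact permutation p = 0.1, adjusted 0.35). RGPD8 held 2.89% ± 0.289 and 2.78% ± 0.408 of the counts (SD, n = 3 each; exact permutation p = 0.7, adjusted 0.933). Of the summed FPKM, however, RGPD8 held 4.99%, 5.19% and 5.79% in shControl and 2.82%, 1.57% and 4.66% in shNXN cells, without overlap (exact permutation p = 0.1, adjusted 0.233).

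**Figure D3:**
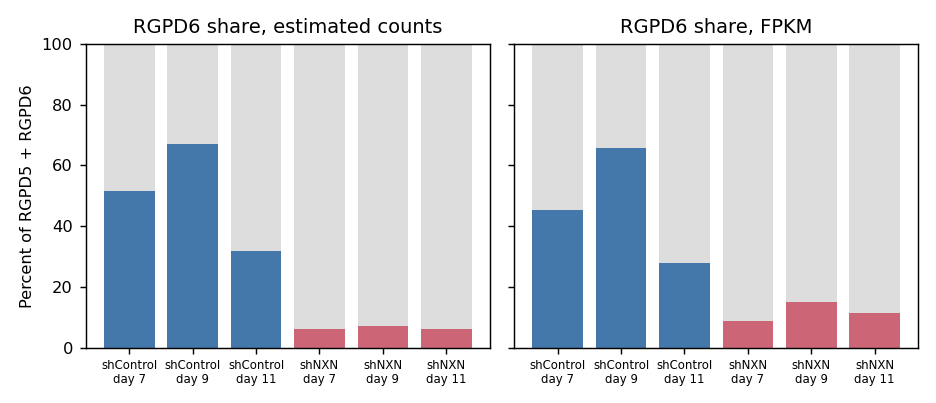
Share of RGPD6 (coloured) and RGPD5 (grey) in the sum of both, in percent, for each library, from the estimated counts (left) and from FPKM (right). RGPD6 takes 31.9% to 67.2% of the counts in shControl and 6.14% to 7.16% in shNXN libraries.

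FPKM compares levels between genes per length. In shControl cells RANBP2 was highest at 24.0 ± 2.02 FPKM, followed by RGPD5 (7.93 ± 4.45), RGPD6 (6.12 ± 1.28) and RGPD8 (2.17 ± 0.470, SD, n = 3 each). Of these, RGPD5 and RGPD6 did not differ beyond their spread, and the other neighbours did. RGPD3 (0.17) and RGPD2 (0.107), which overlapped, and RGPD1 and RGPD4 (both 0) followed. In shNXN cells RGPD5 was highest at 8.19 ± 1.21 FPKM and RANBP2 next at 5.53 ± 5.07 FPKM, which overlapped, since the library of day 11 held 11.31 FPKM of RANBP2 against 3.48 on day 7 and 1.81 on day 9. RGPD6 (1.07 ± 0.160) and RGPD8 (0.527 ± 0.444) came after them and overlapped in their spread (0.9, 1.22 and 1.08 FPKM against 0.4, 0.16 and 1.02 FPKM). Mean counts in shNXN cells were 1000.7 for RANBP2 against 423.5 for RGPD5, and 28.6 for RGPD6 against 44.2 for RGPD8. The FPKM order in shNXN cells thus rests on the transcript length behind each value. That length varied between libraries for RGPD5 and was shorter in shNXN libraries for RGPD6, as given below. The FPKM of RGPD5 was 7.27, 3.85 and 12.67 in shControl and 9.31, 6.9 and 8.35 in shNXN cells, higher in shNXN cells on days 7 and 9 and lower on day 11, whereas its counts were lower on all 3 days. The sum of RGPD5 and RGPD6 was 14.1 ± 3.20 against 9.25 ± 1.06 FPKM, a difference of -0.54 on the log2(FPKM + 1) scale.

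The tables can be set against each other, because a count divided by its FPKM and by the library total gives the transcript length behind the FPKM. For RANBP2 this implied length was 10.91 to 11.26 kb in shControl and 11.18 to 11.43 kb in shNXN libraries, near the 11711 bases of its longest annotated transcript. For RGPD6 it was 5.07, 4.84 and 5.12 kb in shControl libraries and 1.79, 0.82 and 2.53 kb in shNXN libraries, a ratio of the means of 0.342. For RGPD5 it was 3.94, 4.57 and 4.22 kb in shControl and 2.65, 1.87 and 4.98 kb in shNXN libraries, a ratio of 0.746. RGPD8 had a ratio of 1.115, with 3.64 kb on day 11 as its lowest value, in a shControl library. Over 9520 features with at least 100 counts in every library the median ratio was 0.972 and the 5th to 95th percentile ran from 0.581 to 1.133. RGPD6 did not reach 100 counts in shNXN libraries and is not among these features. The annotation holds 11 transcripts of RGPD6, 7 of them under 1000 bases, and 13 of RGPD5, 8 of them under 1000 bases. In shNXN cells the RGPD6 counts thus went with a shorter length in the FPKM table than in shControl cells. What sets this length was not tested.

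The base composition of the transcripts moved with the comparison. The longest transcripts of the 8 members have a GC content of 39.2% to 41.2%. The 1095 other tested features in this range had a median log2 fold change of -0.82 and 93.6% of them were lower in shNXN cells, against a median of 0.03 and 48.6% over all 14071 features. Among the 468 of them with a transcript of at least 5000 bases the median was -0.88. In contrast, the 1922 features with a GC content of 50% to 55% had a median of 0.24. Of the 1095 features, 2.47% had a log2 fold change as low as that of RANBP2. RGPD6 is not ranked among them, since its fold change led to the choice of the family. With each library's GC trend removed, which removes any group difference that follows GC content, the log2 fold change was -1.26 for RANBP2 (edgeR adjusted p = 0.176), -1.19 for RGPD8 (adjusted p = 0.223) and -3.17 for RGPD6. In that fit the sum of RGPD5 and RGPD6 was at -0.28 ± 0.23 (SE) and the sum of all 8 members at -1.02 ± 0.33 (SE, edgeR adjusted p = 0.187), and 0.0355% of all features were called. The part of GC content in the members' values was not tested beyond this correction.

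Other genes of nuclear transport were compared as lists. Of 30 nucleoporins tested, the building blocks of the pore, 1 was called against 3.39% of all features, NUP54, a protein of the central channel. It fell from 48.6 ± 8.66 to 12.5 ± 5.45 CPM (SD, n = 3 each; log2 fold change -1.95 ± 0.32, SE, edgeR adjusted p = 0.0452). The median log2 fold change of the list was -0.60 against 0.03 over all features. With the block 2 nucleoporins were called higher and 8 lower, against 23.3% of all features called and 17.0% called lower. The 15 genes of the Ran cycle and of SUMO conjugation, which supply the partners of RANBP2, had a median of 0.19.

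Karyopherins, the import and export receptors that carry cargo past RANBP2, had 4 of 25 genes called, all lower, against 3.21% of all features called lower, and a median log2 fold change of -1.26. They were KPNA5, an importin alpha (-2.30, edgeR adjusted p = 0.0412), CSE1L, which returns importin alpha to the cytoplasm (-2.05, adjusted p = 0.0452), XPO1, the main exportin for proteins (-1.96, adjusted p = 0.0452), and RANBP17, an exportin-like protein (-1.67, adjusted p = 0.0473). With the block 13 of the 25 were called lower and 0 higher, against 17.0% of all features called lower. XPO1 was at 319, 238 and 350 CPM in shControl and 56.6, 58.0 and 119 CPM in shNXN cells, and CSE1L at 239, 214 and 242 against 43.4, 35.4 and 88.8 CPM. In both the shNXN library of day 11 was the highest of its group, as for RANBP2. With the GC correction 0 genes were called in any of these lists, and the medians were -0.20 for the nucleoporins, 0.00 for the Ran cycle and SUMO genes and -0.42 for the karyopherins.

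GCC2, the donor of the GRIP domain, lies near RANBP2 and is still a gene of its own. It was at 119, 66.1 and 134 CPM in shControl and 47.8, 35.4 and 55.1 CPM in shNXN cells, without overlap. Its log2 fold change was -1.20 ± 0.29 (SE, edgeR adjusted p = 0.0626, or 0.0146 with the block). With the GC correction it was -0.08 (edgeR adjusted p = 0.903). GCC2 belongs to both lists that follow. Of the 4 golgins with a GRIP domain 0 were called, with a median of -0.52, and GOLGA4, a golgin of the trans-Golgi, was at -1.67 (edgeR adjusted p = 0.0736). With the block GCC2 and GOLGA4 were both called lower, against 17.0% of all features. Of 17 genes that neighbour the copies or were duplicated with them, 8 could be tested and 0 were called, with a median of -0.59. PLGLB1, a plasminogen-like gene near RGPD1, was at -1.54 (edgeR adjusted p = 0.0865). With the block 2 of the 8 were called lower, against 17.0% of all features, GCC2 and CCDC138, the latter named after its value was seen (-1.18, edgeR adjusted p = 0.0365). After GC correction 0 genes of either list were called, and the medians were 0.01 for the golgins and -0.08 for the neighbours. GOLGA4 was then at -0.76 and CCDC138 at -0.82 (edgeR adjusted p = 0.212 and 0.231).

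The pattern over the 6 libraries was compared by Pearson's r of log2(CPM + 1), as a description over points that share the libraries, the group difference and the GC trend. Among 12234 features with a symbol and a mean of at least 1 CPM, RGPD8 ranked 11th in likeness to RANBP2 (r = 0.9985). Those nearest to RANBP2 were CCDC25, ATP1B1, KTN1, THNSL1 and TOPBP1 (r = 0.9990 to 0.9996). The features nearest to RGPD6 were ZNF639, ZNF302, ZNF791, TMEM212 and MYOM1 (r = 0.9949 to 0.9981). RANBP2 had r = 0.9122 with RGPD6, and RGPD5 had r = 0.2966 with RGPD6 and r = 0.6073 with RANBP2. Of the tested members, RGPD5 thus had the lowest r with RGPD6 and with RANBP2, although its coding sequence is that of RGPD6. These values can depend on how the reads that RGPD5 and RGPD6 share were divided, which was not tested.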

How the data were processed

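RNA sequencing of 3 shControl and 3 shNXN libraries was analysed from the deposited tables. The authors deposited estimated counts, with 2 decimals, and FPKM values; the aligner and counting program are not given in the sources used here. The submitters' processing notes name the mouse builds GRCm38 and mm10, although the features carry human Ensembl identifiers. There were 0 columns without a sample. Of 20314 Ensembl identifiers, 19433 had a symbol.

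After rounding, the counts were tested in R 4.3.3 by edgeR 4.0.16 with TMM, filterByExpr and the quasi-likelihood test, with Benjamini-Hochberg adjustment over 14071 features (threshold 0.05). The standard error was the log2 fold change over the square root of F. For a sum, the members' rows were replaced by their summed row before the fit. Shares other than that of RGPD6 were compared by exact permutation tests, and FPKM by limma 3.58.1 on log2(FPKM + 1). Alternatives were DESeq2 1.42.0, median-of-ratios (RLE) factors, scaling by library size alone, omission of the filter, a minimum of 10 counts in each library, the replicate block, GC correction (a spline with 5 degrees of freedom), both, log2(FPKM + 0.1), and each library left out. The replicate number follows the day in the labels, and deviations from the group means correlated across features at 0.36, 0.33 and 0.48 within days and -0.39 to 0.16 between days. Replicates of a group differed beyond sampling noise (chi-square per feature 21.3 to 82.9). On simulated data with 200 of 14071 features changed, edgeR without block found 76.5% of them, or 95.6% where the simulated log2 change was 2, and made 4 false calls. The simulation gave every feature the same relative spread and held no day effect and no GC trend. It checks the procedure, and its rates do not carry over to these libraries.

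Sequences came from GENCODE 29 transcripts, and GC content from the longest transcript, known for 90.5% of the tested features. Python 3.11.15 with numpy 2.4.6, pandas 2.3.3, scipy 1.17.1 and matplotlib 3.10.9 was used.

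The members, gene lists and alternatives were chosen with earlier results of these data known. The genes named were the 8 members, NXN, each list's called genes (up to 5, otherwise the 2 with the smallest p) and the 5 features most like RGPD6 and RANBP2. POM121C and PECAM1 were listed and not found under those symbols. Limits drawn from a count of 0 cover counting error only. A result for 1 gene of the Ran cycle and SUMO list is not reported here.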

Additional observations from a re-analysis of the deposited data

Results flagged for a closer look

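In CPM, no member of the family and no sum changed direction between days. In FPKM, RGPD5 was higher in shNXN cells on days 7 and 9 and lower on day 11. Among the other genes named by rule, 2 list genes changed direction in CPM. With 1 library per day and group none of this was tested. APOB, the apolipoprotein of liver lipoproteins and a hepatocyte marker, had log2 differences of -1.19, -1.56 and 0.3 on days 7, 9 and 11. COL1A1, a fibroblast marker at 1.71 CPM in shControl cells, had 0.76, 0.72 and -0.1.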

How the results depend on the processing

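The number of called features was 477 and moved with nearly every setting: 3311 with DESeq2 (949 higher, 2362 lower), 826 with median-of-ratios factors, 929 with scaling by library size alone, 818 with no filter, 576 with a minimum of 10 counts, 3272 with the replicate block (883 higher, 2389 lower), 5 with GC correction, 143 with both (88 higher, 55 lower), 287 with limma on log2(FPKM + 1) and 66 on log2(FPKM + 0.1). It ran from 0 to 3706 with 1 library left out, where edgeR called 0 features without shControl replicate 1 or 3 or shNXN replicate 1 or 2 (3426, 4229, 2706 and 2668 at an unadjusted p under 0.05) and 248 without shControl replicate 2. DESeq2 and limma were not run on those subsets. The causes were not tested. In these fits an arm with 2 libraries remained.

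All sums that could be tested kept their direction in all 16 alternatives. The sum of all 8 members (-1.85) passed with DESeq2 (-1.85), the replicate block (-2.17), limma on log2(FPKM + 1) (-1.39) and without shNXN replicate 3. It ran from -2.75 to -1.46 with 1 library left out. This sum holds the RGPD6 values that chose the family, so its passes are a description. With limma on log2(FPKM + 1) the 7 members other than RGPD6 did not pass (limma adjusted p = 0.0679). The 7 members other than RGPD6 (-1.74) passed with DESeq2 (-1.74), the block (-2.07) and without shNXN replicate 3 (-2.65 to -1.35). The values of the 7 RGPD copies (-1.25) were -1.24 with DESeq2, -1.40 with the block and -1.81 to -0.91 with 1 library left out, and those of RGPD5 with RGPD6 (-1.17) were -1.16, -1.31 and -1.70 to -0.84. RGPD6 supplies most of these last 2 differences, so no test is read from them. Adjusted p values from edgeR, DESeq2 and limma ran from 0.0015 to 0.266 for the sum of all 8 and for the 7 members other than RGPD6. The sums of RGPD1 with RGPD2 and of RGPD3 with RGPD4 did not pass the filter. With no filter they were at -0.58 and -2.69 (edgeR adjusted p = 0.51 and 0.114). In the 4 fits without 1 library that kept it, RGPD3 with RGPD4 ran from -3.65 to -2.14. RGPD4 was at 0 in every library, so this sum is RGPD3 alone. Its shNXN counts were at most 4.04, so the filter kept it through the shControl libraries. No test is read from those fits.

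RANBP2 and RGPD8 kept their direction in all 16 alternatives and passed in 3 each, DESeq2, the block and without shNXN replicate 3. RGPD5 (-0.33) turned to 0.58 with GC correction, 0.63 with GC correction beside the replicate block, 0.16 and 0.19 with limma, and ran from -0.86 to 0.24 with 1 library left out, passing nowhere. Among the shares, the difference of RGPD2 ran from -0.0712 to 0.483 and that of RGPD8 from -0.273 to 0.123 percentage points with 1 library left out. With shares of the summed FPKM in place of counts, the difference moved from -15.8 to -28.2 points for RANBP2, from 22.4 to 38.4 for RGPD5, from -0.112 to -2.3 for RGPD8 and from -0.14 to -0.279 for RGPD3. The median over all features was 0.13 and 0.16 in the limma fits, against 0.03. The replicate block changed no other call among the members. The sums of RGPD copies that include RGPD6 also moved under 0.05 with the block, and no test is read from them. Depth limits RGPD1 to RGPD4, which had at most 22.42 counts in a library.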
